A study of Mus musculus with 12 samples.

Results

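The heat shock chaperone genes examined here were the 10 rows of the expression table whose symbol was Hspa1a, Hspa1b, Hspa8, Hsp90aa1, Hsp90ab1, Dnaja1, Dnajb1, Hsph1, Hspd1 or Hsf1, out of 25192 genes in all. They had been grouped as cytosolic heat shock chaperones. That name held for 8 of the 10, since Hspd1 encodes the mitochondrial chaperonin HSP60 and Hsf1 encodes a transcription factor. After LPS Hspa8, Hsph1, Dnaja1 and Hspd1 were lower. With a trend on gene length removed, Hsph1 and Hspd1 still passed the test, while Hspa8 and Dnaja1 did not. The inducible HSP90 and HSP70 genes Hsp90aa1 and Hspa1b and the factor gene Hsf1 were higher with the main scaling. They were slightly lower, without passing the test, when libraries were scaled by their totals. The heat-inducible Dnajb1 did not pass with the main scaling (log2 fold change 0.17) and was lower when scaled by totals (-0.72). Relative to the constitutive genes within the same library, which needs no scaling, Hsp90aa1 and Hspa1b were 1.71 to 2.16-fold higher after LPS. With ferulic acid pretreatment none of the 9 tested members passed the test against LPS alone, where 0.284% of all tested genes did (40 of 14065). The member nearest to passing was Hspd1.

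HSP70 binds short hydrophobic stretches of unfolded proteins and releases them when it exchanges ADP for ATP. J-domain proteins bring substrates to it and trigger ATP hydrolysis, HSP110 exchanges its nucleotide, and HSP90 takes over clients such as kinases and steroid receptors at a late stage of folding. Both HSP70 and HSP90 have constitutive genes (Hspa8, Hsp90ab1) and stress-inducible ones (Hspa1a and Hspa1b, Hsp90aa1). Heat shock factor 1, the product of Hsf1, binds heat shock elements, which are inverted repeats of the unit GAA, in the promoters of the inducible genes. It is regulated largely at the protein level, so its mRNA does not report its activity. In macrophages HSP90 holds client kinases of Toll-like receptor signalling.

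Poly(A) RNA was sequenced from the mouse macrophage-like line RAW264.7 in 3 groups of 4 libraries. Control cells had neither agent. LPS cells received bacterial lipopolysaccharide, the ligand of Toll-like receptor 4, for 24 h at 1 µg/mL. The third group had 12 h with 10 µM of the plant phenolic ferulic acid, followed by the same 24 h of LPS. No group received ferulic acid alone. Nothing in the labels says that libraries of one group are separate cultures. All p-values therefore refer to library-to-library spread, and that spread may be technical.

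Totals ran from 32548423 to 49961581 counts per library. The first principal component (77.8% of the variance) set control apart from all LPS-treated libraries, and on the second (6.81%) ferulic acid plus LPS libraries 1 and 4 scored -44.0 and -76.6, against 25.6 and 7.56 for libraries 2 and 3 and 12.5 to 41.3 for the LPS group. Of 10 macrophage markers 9 could be tested, and with the main scaling 5 rose and 4 fell after LPS, where 35.6% of all tested genes rose and 38.3% fell. The summed level of all 10 was 4530 to 5003 CPM (counts scaled to library size) in control libraries, 3276 to 3544 CPM in LPS libraries and 3046 to 3490 CPM in those with both agents. The lower sum after LPS came mostly from Lyz2 (mean 2412 CPM in control, 395 CPM with LPS) and Csf1r (1040 and 129 CPM). Of 16 markers of other cell types, 10 were in the table, summing to 1.60 to 1.82, 2.11 to 3.65 and 1.75 to 3.78 CPM. Reads of ribosomal protein genes made up 7.62 to 9.91% of control libraries, 14.2 to 16.3% of LPS libraries and 13.2 to 21.0% of those with both agents. The 11 mitochondrial and nuclear RNAs listed as signs of RNA quality summed to 23740 to 27850 CPM in control and 36680 to 51210 CPM in LPS libraries. With both agents libraries 1 and 4 were at 56300 and 57370 CPM, library 3 at 42790 and library 2 at 32670. The higher sum with LPS came from mt-Co1 (mean 13770 CPM in control, 37640 CPM with LPS). Of the 11 RNAs 1 was called higher (mt-Co1, 1.45) and 6 lower with LPS, mt-Nd1 at -2.14 and the nuclear Malat1 at -1.64 on the log2 scale among the latter. Their part in the chaperone values was not tested. In such bulk libraries, fewer cells and less RNA per cell cannot be told apart.

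Of the 10 members, 6 matched the RefSeq promoter table (GRCm38.p6). The 250 bases before the start of 5 of them are printed here to show where they match the letters of a heat shock element. Capitals mark GAA or TTC units within GAANNTTC or TTCNNGAA, searched on both strands. A longer pattern adds 1 more inverted unit after 2 further bases, for 3 units in all, and so overlaps the shorter one. The stretches are chr17:34972157-34972406 for Hspa1a, chr17:34959239-34959488 for Hspa1b, chr1:55087933-55088182 for Hspd1 and chr5:149636316-149636565 for Hsph1, all on the minus strand, and chr4:40722218-40722467 on the plus strand for Dnaja1.
Hspa1a: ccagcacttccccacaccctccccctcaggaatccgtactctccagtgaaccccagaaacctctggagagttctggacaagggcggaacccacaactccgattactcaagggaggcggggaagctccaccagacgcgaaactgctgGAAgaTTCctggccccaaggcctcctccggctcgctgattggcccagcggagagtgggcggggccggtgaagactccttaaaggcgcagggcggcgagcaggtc
Hspa1b: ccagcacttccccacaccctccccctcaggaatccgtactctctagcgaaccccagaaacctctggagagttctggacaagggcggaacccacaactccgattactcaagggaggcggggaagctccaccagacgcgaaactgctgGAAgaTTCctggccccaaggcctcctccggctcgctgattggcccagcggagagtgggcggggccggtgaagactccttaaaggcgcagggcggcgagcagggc
Hspd1: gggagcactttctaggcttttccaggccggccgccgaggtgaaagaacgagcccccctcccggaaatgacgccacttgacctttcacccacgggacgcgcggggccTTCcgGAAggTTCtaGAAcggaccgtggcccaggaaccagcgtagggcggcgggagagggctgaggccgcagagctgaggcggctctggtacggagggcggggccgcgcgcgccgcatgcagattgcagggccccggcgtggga
Hsph1: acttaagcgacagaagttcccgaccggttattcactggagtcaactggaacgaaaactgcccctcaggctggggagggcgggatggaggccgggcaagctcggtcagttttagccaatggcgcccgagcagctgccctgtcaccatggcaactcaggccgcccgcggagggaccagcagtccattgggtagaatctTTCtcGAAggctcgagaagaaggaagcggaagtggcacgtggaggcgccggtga
Dnaja1: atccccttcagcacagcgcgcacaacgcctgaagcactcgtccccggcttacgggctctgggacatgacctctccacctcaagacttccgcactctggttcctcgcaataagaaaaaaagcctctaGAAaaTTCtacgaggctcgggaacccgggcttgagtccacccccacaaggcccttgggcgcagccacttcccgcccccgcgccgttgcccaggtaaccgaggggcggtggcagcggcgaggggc

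Hspa1a and Hspa1b differed at 3 of these 250 bases (98.8% identical) and each held 1 match, starting at position -104 relative to the start of transcription. Hspd1 held 3 overlapping matches of the shorter pattern and 2 of the longer one. The Hsph1 stretch held 1 match of the shorter pattern, and a match of the longer one began at position 16 after the start. Dnaja1 held 1 match and both Dnajb1 windows held 0. Over all 32851 promoter windows of 300 bases (250 before the start and 50 after), 15.1% held the shorter pattern and 0.603% the longer one. Hspd1, Hsph1 and Dnaja1 have further start sites in the table, and the other windows of Hspd1 and Dnaja1 held 0 matches. For these 2 genes the stretch printed is thus the one that held matches. The printed Hspd1 stretch lies downstream of the gene's other start site, whose own 250 bases are chr1:55088244-55088493. A match is a run of letters in a window and says nothing on binding.

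Compared per length in FPKM (fragments scaled by gene length and by library total, as deposited), constitutive chaperones dominated. In control libraries Hsp90ab1 stood at 1013 ± 44.4 FPKM (SD, n = 4), Hspa8 at 345 ± 16.7, Hspd1 at 181 ± 14.9 and Hsp90aa1 at 91.7 ± 7.68. Hsph1 (22.0 ± 1.78 FPKM), Dnajb1 (15.7 ± 0.991), Dnaja1 (13.5 ± 1.48), Hsf1 (5.99 ± 0.302) and Hspa1b (2.49 ± 0.261) followed, and of these neighbours the ranges of Dnajb1 and Dnaja1 overlapped. After LPS Hsp90aa1 (76.2 ± 13.2 FPKM) stood above Hspd1 (60.5 ± 5.57), with no overlap of their ranges. Hsf1 (5.55 ± 0.396), Hsph1 (5.48 ± 1.18) and Dnaja1 (3.73 ± 0.552) each overlapped the next one down, which for Dnaja1 was Hspa1b (2.2 ± 0.692). With ferulic acid plus LPS, Hsp90ab1 led at 508 ± 305 FPKM, before Hspa8 at 152 ± 25.4 FPKM, and Hsp90aa1 (101 ± 19.5) overlapped Hspd1 (92.3 ± 15.1). Together the 10 members held 0.574% ± 0.0225 of control reads, 0.269% ± 0.0302 of LPS reads and 0.296% ± 0.0952 of reads from cells given both agents. Those shares and FPKM divide by all reads of a library, whereas the CPM that follow are scaled by TMM (trimmed mean of M values), which sets the typical gene level between libraries.

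**Figure D1:**
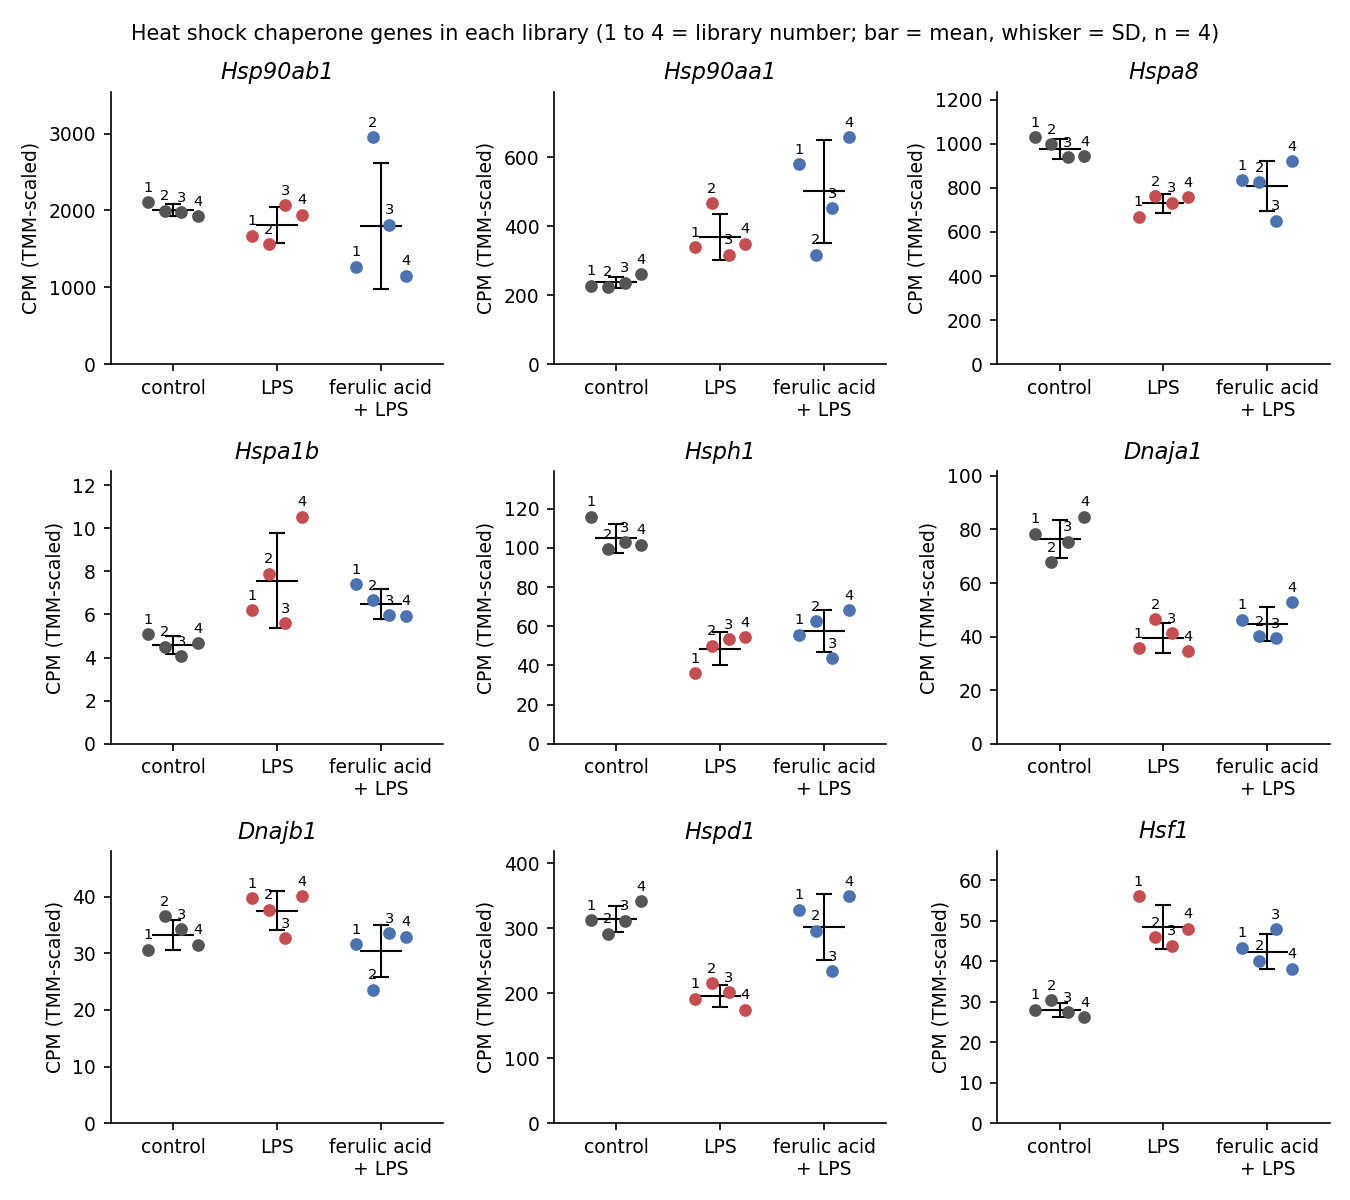
TMM-scaled CPM (y axis, linear, from 0) of 9 chaperone genes in each of the 12 libraries, with points numbered by library, bars at the group mean and whiskers of 1 SD (n = 4). Hsph1 and Dnaja1 lie lower in all LPS-treated libraries than in any control library, and Hsp90ab1 ranges from 1150 to 2951 CPM within the ferulic acid plus LPS group.

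Hsp90ab1, the constitutive HSP90, read 2108, 1994, 1975 and 1926 CPM in control libraries 1 to 4. In LPS libraries 1 to 4 it read 1669, 1560, 2068 and 1946 CPM, and with ferulic acid plus LPS 1267, 2951, 1816 and 1150 CPM. The LPS range overlapped control, while ferulic acid plus LPS library 2 was the highest of all 12 and library 4 the lowest. Its log2 fold change with LPS was -0.14 (95% interval -0.63 to 0.34, adjusted p = 0.581) with TMM. With library size scaling it was called lower (-1.04, adjusted p = 0.0035).

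Hsp90aa1, the stress-inducible HSP90, read 227, 225, 237 and 261 CPM in control libraries. The LPS libraries read 338, 467, 317 and 349 CPM and the ferulic acid plus LPS libraries 580, 317, 452 and 657 CPM. Every LPS-treated library was above every control library, and ferulic acid plus LPS libraries 1 and 4 were above all LPS libraries. With TMM Hsp90aa1 rose with LPS by 0.63 on the log2 scale (SE 0.19, adjusted p = 0.00692), and with library size scaling the estimate was -0.27 (adjusted p = 0.138). In the reference transcripts 38.0% of its 100-base stretches also occur in another gene, mainly Gm12346, so its reads could have been lost or shared in counting.

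Hspa8, the constitutive cytosolic HSP70 (HSC70), read 1029, 997, 939 and 942 CPM in control libraries. LPS libraries read 669, 763, 732 and 758 CPM, and ferulic acid plus LPS libraries 834, 824, 651 and 921 CPM. All 8 LPS-treated libraries were below all control libraries. It fell with LPS by 0.42 on the log2 scale (SE 0.13, adjusted p = 0.00869). With a trend on gene length removed the change was -0.18 (adjusted p = 0.217), and 28.5% of its stretches are shared with other genes.

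Hspa1b, a stress-inducible HSP70, was scarce. Control libraries read 5.09, 4.50, 4.07 and 4.67 CPM, LPS libraries 6.20, 7.90, 5.60 and 10.5 CPM, and ferulic acid plus LPS libraries 7.41, 6.66, 5.96 and 5.95 CPM. The lowest LPS-treated library was above the highest control library. With TMM Hspa1b rose with LPS by 0.72 on the log2 scale (SE 0.21, adjusted p = 0.00456), against -0.17 (adjusted p = 0.493) with library size scaling. Hspa1a, its near-identical neighbour, had 4 reads in all, 3 in LPS library 1 and 1 in LPS library 4, and was not tested. Its count of 0 in each control library allows up to 3 reads per library, 0.0413 to 0.0565 CPM. The pair shares sequence (49.9% of Hspa1b stretches occur in Hspa1a), so the division of reads between them is uncertain, and their summed counts gave 0.73 (adjusted p = 0.00419).

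Hsph1, the HSP110 that exchanges nucleotide on HSP70, read 116, 99.4, 103 and 102 CPM in control libraries. LPS libraries read 36.1, 50.2, 53.4 and 54.4 CPM, and ferulic acid plus LPS libraries 55.7, 62.7, 43.7 and 68.1 CPM. Both treated groups lay below control without overlap. Hsph1 fell with LPS by 1.11 on the log2 scale (SE 0.16, adjusted p = 8.33e-06), to 46.2% of control, the largest fall among the members with TMM. The fall was 0.49 (adjusted p = 0.0071) with the length trend removed.

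Dnaja1, a J-domain cochaperone of HSC70, read 78.4, 67.7, 75.4 and 84.7 CPM in control libraries. It read 35.7, 46.4, 41.3 and 34.6 CPM with LPS and 46.2, 40.2, 39.4 and 52.8 CPM with ferulic acid plus LPS. All 8 treated libraries were lower than every control library. It fell with LPS by 0.96 (log2, SE 0.14, adjusted p = 1.11e-05), and the call was lost with the length trend removed (-0.21, adjusted p = 0.208). The Dnaja1 gene model is 8629 bases long, against a median of 3796 bases over all genes tested, and 16.6% of its stretches are shared.

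Dnajb1, the heat-inducible J-domain protein HSP40, read 30.6, 36.5, 34.3 and 31.5 CPM in control libraries, 39.7, 37.7, 32.6 and 40.0 CPM after LPS, and 31.6, 23.6, 33.5 and 32.9 CPM after both agents. The 3 groups overlapped. Its log2 fold change with LPS was 0.17 (95% interval -0.12 to 0.47, adjusted p = 0.262) with TMM and -0.72 (adjusted p = 0.000101) with library size scaling.

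Hspd1, the mitochondrial HSP60, read 313, 292, 312 and 342 CPM in control libraries. LPS libraries read 192, 216, 202 and 175 CPM, and ferulic acid plus LPS libraries 329, 297, 234 and 349 CPM. The LPS group lay below both other groups without overlap, and the other two overlapped. Hspd1 fell with LPS by 0.68 (log2, SE 0.14, adjusted p = 0.000309), and this call and its direction held in all 25 alternatives run for it, as did those of Hsph1. Of its 100-base stretches 23.9% are shared with other genes, mainly the pseudogene Hspd1-ps3.

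Hsf1 read 28.1, 30.4, 27.4 and 26.2 CPM in control libraries. It read 56.1, 45.9, 43.8 and 48.1 CPM with LPS and 43.4, 40.1, 48.0 and 38.1 CPM with ferulic acid plus LPS. Every treated library was above every control library. It rose with LPS by 0.79 (log2, SE 0.13, adjusted p = 2.97e-05) with TMM, and stood at -0.11 (adjusted p = 0.482) with library size scaling and 1.40 with the length trend removed.

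In LPS against control, 3 of the 9 tested members rose and 4 fell with edgeR's quasi-likelihood test, where 73.8% of all tested genes were called (35.6% higher, 38.3% lower). The 7 called members were also those whose groups did not overlap, as in 75.3% of all genes (35.5% higher, 39.8% lower). The members' share is near that background. Their median log2 fold change was -0.14, beside -0.10 for all genes. Library size scaling moved the all-gene median to -0.99, and under it 0 members were higher and 6 lower, where 17.5% of all genes were higher and 59% lower. Hsph1, Dnaja1, Hspa8 and Hspd1 were lower under both scalings, and Hspa1b, Hsp90aa1 and Hsf1 were higher than the typical gene under both.

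**Figure D2:**
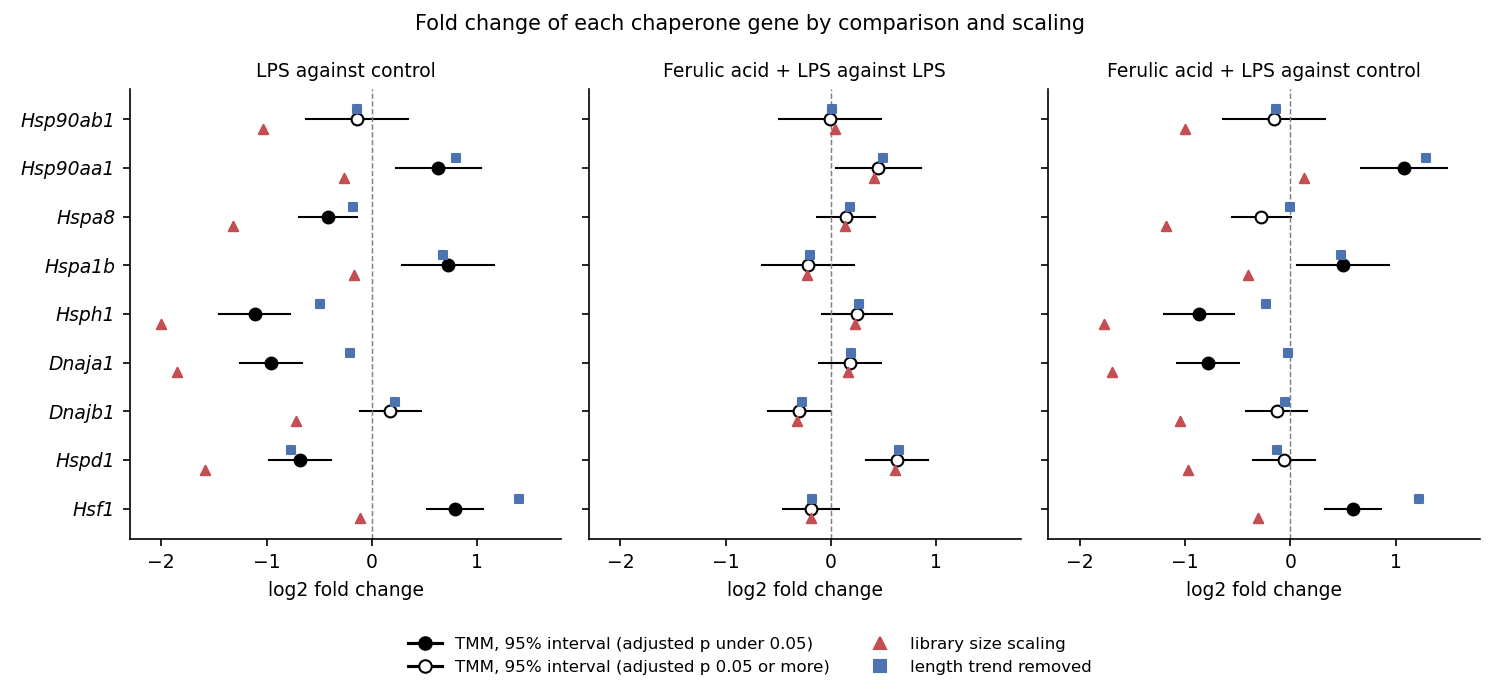
Log2 fold change (x axis) of 9 chaperone genes in the 3 comparisons, as circles with 95% intervals from the TMM fit (filled where adjusted p was under 0.05), triangles with library size scaling and squares with the length trend removed. In the comparisons with control, library size scaling places every gene lower, Hsf1 at -0.11 against 0.79 for LPS, while in ferulic acid plus LPS against LPS the 3 symbols lie close together.

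The ratio of a pair of genes within a library does not depend on scaling. Hsp90aa1 to Hsp90ab1 was 0.0823, 0.0860, 0.0914 and 0.103 in control and 0.155, 0.228, 0.117 and 0.137 in LPS libraries, as FPKM ratios. All 4 LPS values exceeded all control values, a 1.71-fold difference (exact two-sided permutation test, p = 0.0286, the smallest that 4 against 4 allows, adjusted p = 0.0477 over 15 tests). The inducible HSP70 pair Hspa1a plus Hspa1b relative to Hspa8 went from 0.00720 ± 0.000480 to 0.0159 ± 0.00405 (SD, n = 4), 2.16-fold higher, and Hsp90aa1 to Hspa8 from 0.267 ± 0.0283 to 0.550 ± 0.0858, 2.05-fold higher. Dnajb1 to Dnaja1 went from 1.18 ± 0.203 to 2.61 ± 0.524, and its log2 difference of 1.13 became 0.43 with the length trend removed. All 4 LPS values lay outside the control range in each of these ratios, with the same exact permutation p = 0.0286 and adjusted p = 0.0477. Every ratio that passed stood at this smallest p. Its adjusted p therefore hangs on how many of the 15 tests shared that p and on the size of the family. The planned ratio of Hspa1a to Hspa1b was not in the family. The ratios also share genes and control libraries, so they are not independent results.

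Hspd1 and Hspe1 encode the HSP60 chaperonin and its HSP10 lid, and the genes lie head to head. Their ratio in FPKM was 1.66, 1.17, 1.40 and 1.81 in control libraries and 0.308, 0.364, 0.347 and 0.347 in LPS libraries. No library of the LPS group came near control. The log2 difference was -2.13 (SE 0.15, exact permutation p = 0.0286, adjusted p = 0.0477), and -1.75 with the length trend removed. Hspe1 itself rose with LPS, by 1.44 on the log2 scale (SE 0.21, adjusted p = 1.06e-05) from 118 ± 16.5 CPM to 321 ± 27.9 CPM, and by 0.54 with library size scaling, opposite to Hspd1. Its gene model is short, 1474 bases against 2642 for Hspd1, and 11.0% of its stretches are shared with other genes.

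**Figure D3:**
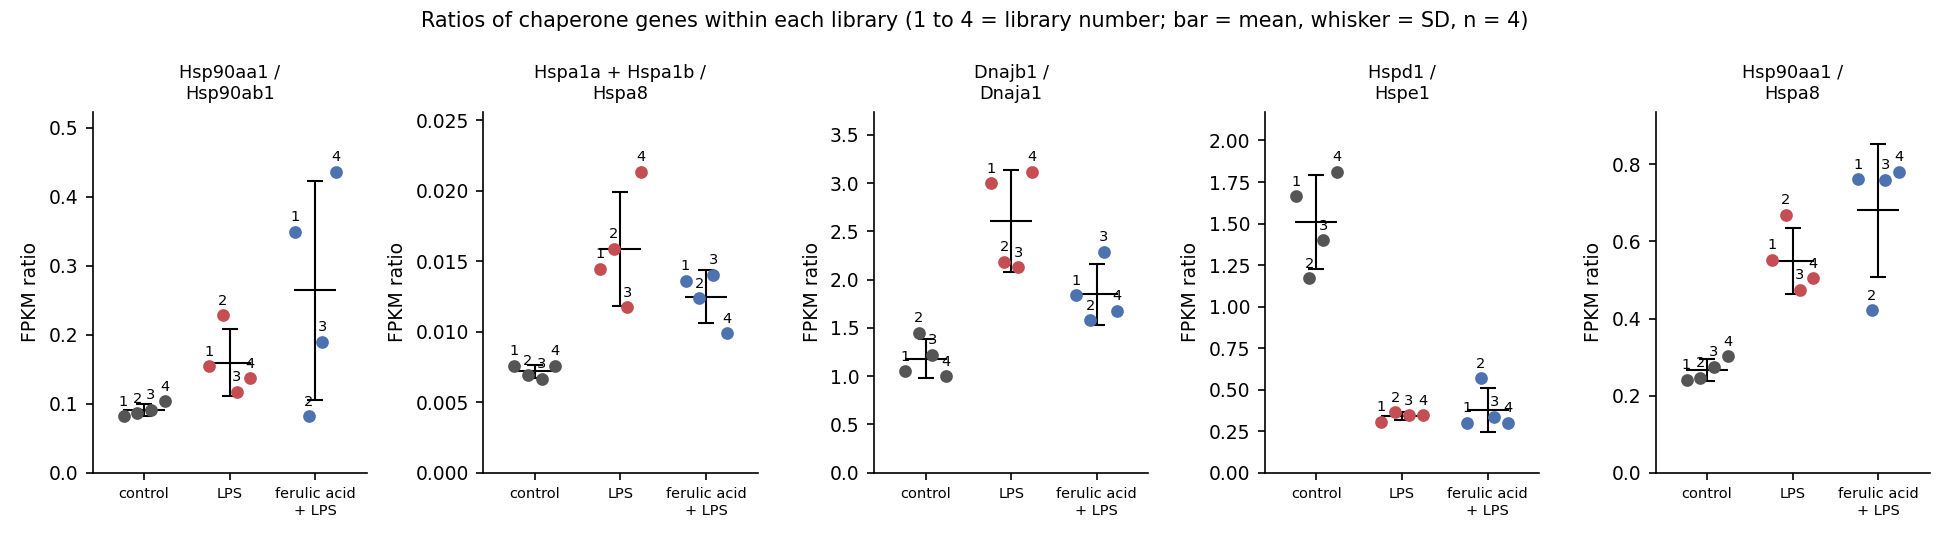
FPKM ratio of 5 pairs of chaperone genes in each library (y axes linear, from 0), with points numbered by library, bars at the mean and whiskers of 1 SD (n = 4). Inducible relative to constitutive genes are higher in LPS than in control libraries, Hspd1 to Hspe1 is lower, and ferulic acid plus LPS library 2 has the lowest Hsp90aa1 to Hsp90ab1 ratio of its group, 0.0820.

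Ferulic acid plus LPS was set against LPS to ask what the pretreatment changed. With edgeR's quasi-likelihood test 0 of 9 members were called, where 0.284% of all genes were (40 of 14065, 0.0853% higher and 0.199% lower). At an unadjusted p under 0.05 stood 3 members, Hspd1, Hsp90aa1 and Dnajb1, as did 23% of all genes (3236 of 14065). DESeq2 called 1 member, Hspd1, and 6.19% of all genes. Hspd1 was the member whose groups did not overlap, as in 7.02% of all genes (2.67% higher, 4.36% lower). It stood at 0.62 (log2, 95% interval 0.33 to 0.92, adjusted p = 0.0613). It was called in 7 of 25 alternatives, with adjusted p from 7.38e-05 to 0.296 over all of them, among them DESeq2 (0.00208) and the fits without ferulic acid plus LPS library 2 (0.0126) or 3 (0.0169).

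Hsp90aa1 differed between these groups by 0.45 (95% interval 0.04 to 0.85, adjusted p = 0.183), and was called without ferulic acid plus LPS library 2 (0.60, adjusted p = 0.0179, and between 0.000533 and 0.934 across the 25 alternatives). Dnajb1 stood at -0.30 (95% interval -0.60 to -0.01, adjusted p = 0.205). For Hsp90ab1 the value was -0.01 (95% interval -0.50 to 0.47, adjusted p = 0.989), and it turned on which libraries were used. It was -0.60 without libraries 2 and 3, where 5664 of 15008 genes were called, and 0.40 without libraries 1 and 4. These are the pairs that the second principal component of the same data sets apart, so both values are given as a description. Hspa8 (0.14), Dnaja1 (0.18), Hsph1 (0.25), Hspa1b (-0.22) and Hsf1 (-0.19) had intervals that included 0. None of the 5 ratios passed, and the nearest was Dnajb1 to Dnaja1 at 1.85 ± 0.314 against 2.61 ± 0.524 (exact permutation p = 0.0857, adjusted p = 0.129). Among readouts of LPS activation, Nos2 was called lower with TMM (-0.90, SE 0.18, adjusted p = 0.0487) but not with library size scaling (-0.88, adjusted p = 0.137), a replicate block or only the 2 groups in the fit. Tnf (-0.67, adjusted p = 0.0797) and Il6 (0.42, adjusted p = 0.390) did not pass.

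Ferulic acid plus LPS was also set against control, a comparison that shares the control libraries with the first. Here 3 of 9 members rose and 2 fell, where 73.3% of all genes were called (35.8% higher, 37.5% lower). The groups did not overlap for 6 members, as for 68.2% of all genes (32% higher, 36.2% lower). Hsp90aa1 rose by 1.08 (log2, SE 0.19, adjusted p = 8.89e-05), and lost the call with library size scaling, as did Hsf1, which rose by 0.60 (SE 0.13, adjusted p = 0.000442) and turned to -0.30 under it. Hspa1b rose by 0.50 (SE 0.21, adjusted p = 0.0367), turned to -0.40 with library size scaling and lost its call without control library 2, 3 or 4 or ferulic acid plus LPS library 1 or 2 (adjusted p of 0.0702, 0.0990, 0.0632, 0.0887 and 0.0609). Dnaja1 fell by 0.78 (SE 0.14, adjusted p = 9.14e-05) and Hsph1 by 0.87 (SE 0.16, adjusted p = 0.000107), and both calls were lost with the length trend removed (-0.02 and -0.23).

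With TMM Hspd1 stood at -0.06 against control (95% interval -0.35 to 0.23, adjusted p = 0.716), Hspa8 at -0.27 (adjusted p = 0.069), Hsp90ab1 at -0.16 (adjusted p = 0.551) and Dnajb1 at -0.13 (adjusted p = 0.409). With library size scaling each of them was called lower, as were 8268 of 14065 genes. The values were -0.97 for Hspd1 (adjusted p = 1.25e-05), -1.18 for Hspa8 (1.1e-06), -0.997 for Hsp90ab1 (0.00452) and -1.05 for Dnajb1 (2.15e-06). DESeq2 also called the Hspa8 change (adjusted p = 0.0304). In TMM fits it was called without ferulic acid plus LPS library 2 (adjusted p = 0.0481) or 4 (adjusted p = 0.0351). Hsp90ab1 was called lower without library 2 (-0.52, adjusted p = 0.00605). The ratio of Hspd1 to Hspe1 was 0.302, 0.571, 0.336 and 0.302, below all control values (log2 difference -2.03, exact permutation p = 0.0286, adjusted p = 0.0477). Hsp90aa1 to Hspa8, at 0.681 ± 0.173, and the inducible HSP70 pair to Hspa8, at 0.0125 ± 0.00186, exceeded control with the same p. So did Dnajb1 to Dnaja1, at 1.85 ± 0.314, with a log2 difference of 0.64 that was -0.035 with the length trend removed. Hsp90aa1 to Hsp90ab1 spread from 0.0820 in library 2 to 0.436 in library 4 and did not pass (exact permutation p = 0.143, adjusted p = 0.195).

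Other chaperone classes gave the members their setting in LPS against control, where 35.6% of all tested genes rose and 38.3% fell. Of 17 other HSP70 and exchange factor genes, 5 rose and 6 fell (median log2 fold change -0.61, against -0.10 for all genes). Bag5, a BAG-domain exchange factor, fell by 2.39 (SE 0.19). Hspa2, the testis-enriched HSP70, had the lowest fitted value of the list (-3.64, SE 0.97) from 174 control and 8 LPS reads, and it entered the test through the control libraries alone. The 6 that fell include it. Of 15 other J-domain genes, 3 rose and 8 fell (median -0.39), with the endosomal Dnajc13 at -2.59 (SE 0.17) and Dnajb2 at 2.08 (SE 0.13). Of 19 HSP90 cochaperones, 8 rose and 5 fell (median 0.25), with Sugt1, the SGT1 cochaperone, at 1.58 (SE 0.20) and Cdc37l1 at -1.34 (SE 0.18). With library size scaling, 17.5% of all genes were higher and 59% lower. The counts of these 3 lists were then 1 higher and 11 lower, 1 and 12, and 2 and 14, with medians of -1.51, -1.30 and -0.65 (all genes -0.99). With the length trend removed they were 7 and 5, 4 and 7, and 10 and 2, where 5309 of 14065 genes were higher and 4550 lower. The medians were then -0.07, -0.04 and 0.42 (all genes 0.07), so the low medians of the first and second list did not hold under that setting.

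Of 14 genes of the cytosolic chaperonin TRiC and of prefoldin, which hands it nascent actin and tubulin, 8 rose and 0 fell (median 0.76), with the prefoldin subunits Pfdn4 at 2.82 (SE 0.35) and Pfdn1 at 2.24 (SE 0.15). Of 15 mitochondrial chaperone and protease genes other than Hspd1, 12 rose and 0 fell (median 0.96), among them the protease Clpp (2.05, SE 0.14) and Dnajc15 (1.85, SE 0.22). With library size scaling 17.5% of all genes were higher and 59% lower (median -0.99). Under it 4 rose and 6 fell in the former list (median -0.14) and 5 and 6 in the latter (median 0.06). Of 16 endoplasmic reticulum chaperones, 14 rose and 1 fell (median 1.40), and 8 and 2 with library size scaling, led by Hspa5, the HSP70 of that compartment (3.39, SE 0.16), and Manf (2.54, SE 0.12). With the length trend removed 5309 of 14065 genes were higher and 4550 lower (median 0.07). Under that setting 11 rose and 0 fell in the chaperonin and prefoldin list (median 0.65). The counts were 11 and 0 in the mitochondrial list (median 1.21) and 15 and 0 in the endoplasmic reticulum list (median 1.35). All these lists had 0 calls in ferulic acid plus LPS against LPS, where 0.284% of all genes were called (40 of 14065), so 0 is near that background.

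**Figure D4:**
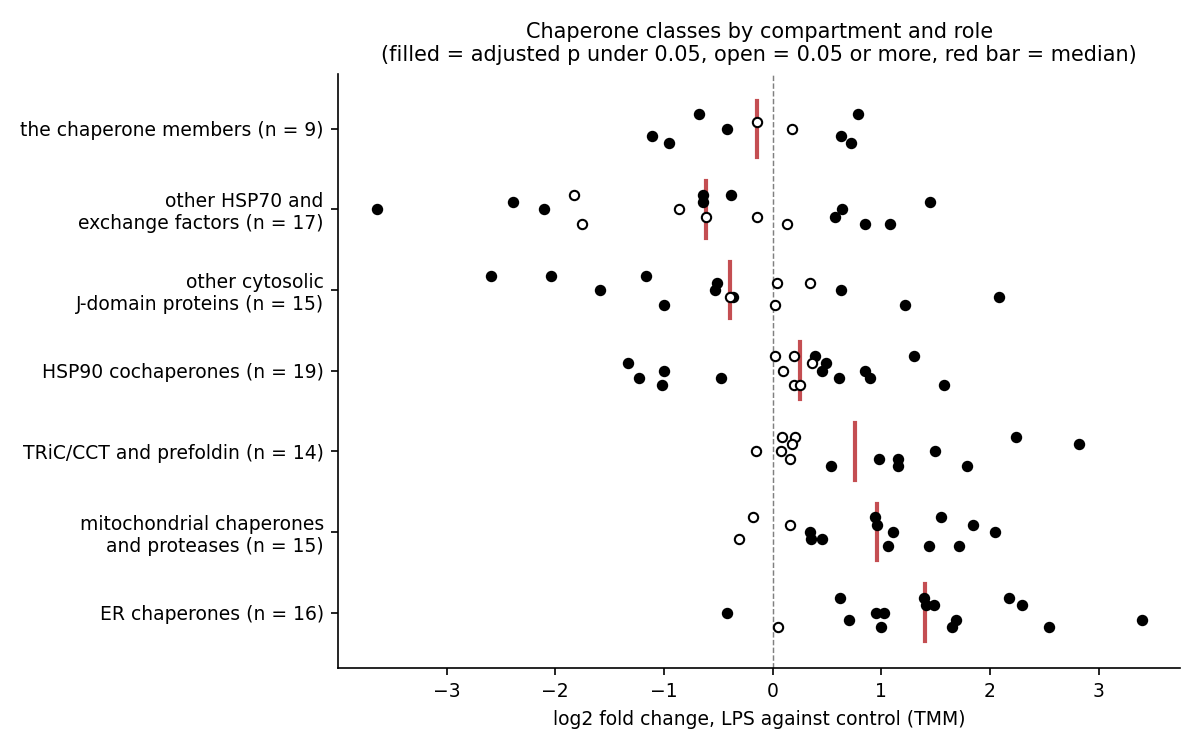
Log2 fold change in LPS against control (x axis, TMM scaling) of each tested gene in 7 chaperone classes (rows), filled where adjusted p was under 0.05, with the class median as a red bar. The medians run from -0.61 for other HSP70 and exchange factors to 1.40 for endoplasmic reticulum chaperones, and the members are at -0.14 (-1.51, 0.51 and -1.04 with library size scaling, and -0.07, 1.35 and -0.14 with the length trend removed).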

How the data were processed

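The 10 members and all gene lists were chosen with earlier results of these data known. Raw gene-level read counts of 12 libraries were deposited, per the file headers, without normalization. FPKM were deposited beside them, per the file headers, and a check on the table gave 1 constant length per gene for all 25192 genes. Per the submitters' processing notes the tools included edgeR 3.36.0, DESeq2 1.34.0, featureCounts 2.0.6, HISAT2 2.2.1 and fastp 0.23.4, on mouse build GRCm39. Their roles, the annotation and the strand setting are not given in the sources used here, so a gene and an antisense overlap could not be separated. Promoter coordinates are of GRCm38.p6 and were not joined to the counts by position.

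The main test was the quasi-likelihood F test of edgeR 4.0.16 (R 4.3.3) with TMM scaling, the default filterByExpr filter and all 12 libraries in one fit with group as the term. It tested 14065 genes. The 11127 left out held 0.0421% of reads. A call needed an adjusted p under 0.05 (Benjamini-Hochberg, all tested genes). SE was the size of the log2 fold change over the root of F, intervals are 95%, and CPM used library sizes after TMM adjustment. Ratios of FPKM per library were compared by exact two-sided permutation (scipy 1.17.1, Python 3.11.15), adjusted over 15 tests. The planned ratio of Hspa1a to Hspa1b was not computed because Hspa1a was at 0 in most libraries.

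Alternatives were DESeq2 1.42.0 without independent filtering, other scalings and filters, limma 3.58.1 on log2(FPKM + 1) and log2(FPKM + 0.1), a replicate block, a loess trend on gene length removed per library, summed Hspa1a and Hspa1b, and fits without single libraries or pairs of them. The edgeR fit was tested on simulated counts. Pairs of libraries within a group differed beyond sampling noise (lowest chi-square per gene 12.2), so each counted as 1 replicate. Floors of 3 counts cover counting error only. Sequence shared with other genes was the share of 100-base stretches of GENCODE M21 transcripts. Named genes were the members, the 2 called genes with the largest change in LPS against control per list described, Tnf, Nos2 and Il6, and the 5 genes most like each of Hspa1a plus Hspa1b, Hsp90aa1 and Hsph1. Hspe1 was named as the partner in a ratio.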

Additional observations from a re-analysis of the deposited data

Results flagged for a closer look

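Within each group of 4 libraries, the gap between an extreme library and its nearest neighbour was compared with the range of the group. Of 42 groups examined 3 were flagged, where chance flags about 5%. All 3 concern ferulic acid plus LPS library 2. Dnajb1 was at 23.6 CPM in it, the lowest of its group. The Hspd1 to Hspe1 ratio was 0.571 there, the highest of its group, and the Hsp90aa1 to Hspa8 ratio was 0.421, the lowest.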

How the results depend on the processing

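For LPS against control, library size scaling gave 0 members higher (2467 of all genes higher, 8305 lower). limma on FPKM + 1 and on FPKM + 0.1, which divide by all reads too, gave 0 members higher (2478 and 2535 of all genes higher, 8396 and 8489 lower). Under these 3 settings in turn Hspa1b was at -0.17, -0.14 and -0.21, Hsp90aa1 at -0.27, -0.28 and -0.28, Dnajb1 at -0.72, -0.67 and -0.72 and Hsf1 at -0.11, -0.10 and -0.11. With the length trend removed 3 members were higher and 2 lower (5309 and 4550 of all genes). For ferulic acid plus LPS against control the 3 settings gave 0 members higher and 6, 7 and 6 lower (all genes 2536, 2521 and 2560 higher, 8268, 8474 and 8564 lower), with Hspa1b at -0.40, -0.28 and -0.39 and Hsf1 at -0.30, -0.26 and -0.31. With the length trend removed 3 members were higher and 0 lower (5387 and 4448 of all genes), and Hspa8 was at 0.00019. Without libraries 2 and 3 Hspd1 was at 0.092, and without libraries 1 and 4 Hsp90ab1 was at 0.26. Leaving out single libraries gave 2 to 4 members lower (4 without ferulic acid plus LPS library 2). Over all genes it gave 5023 to 5677 lower (5677 without that library). Hspd1 then ran from -0.13 to 0.051 and Hsp90ab1 from -0.52 to 0.012. The cause was not tested.

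In ferulic acid plus LPS against LPS, 1 member was higher under each of DESeq2, no low-count filter, the 10 CPM filter and removal of the length trend, and 2 were higher and 1 lower without libraries 2 and 3. Over all genes the counts higher and lower were 403 and 467 with DESeq2, 0 and 2 with library size scaling, 432 and 287 without the filter, 25 and 46 with the 10 CPM filter, 0 and 0 with only the 2 groups, 2 and 7 for limma on FPKM + 1, 0 and 0 for limma on FPKM + 0.1, 24 and 70 with the length trend removed, 2685 and 2979 without libraries 2 and 3, and 4 and 3 without libraries 1 and 4. Unadjusted p was under 0.05 for 2082 genes with only the 2 groups and 2572 with limma on FPKM + 0.1. Leaving out single libraries gave 0 to 2 members higher, and 0 to 1334 genes higher and 0 to 1336 lower, with the highest counts without ferulic acid plus LPS library 2 and 709 and 706 without library 3. Hsp90ab1 was at 0.039 with library size scaling, 0.0097 with the length trend removed, 0.40 without libraries 1 and 4 and from -0.37 to 0.15 without single libraries.

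With a replicate block, 0 genes were higher and 0 lower in this comparison (2450 at an unadjusted p under 0.05), and no member's call changed in any comparison. Deviations of same-numbered libraries correlated from -0.203 to 0.0838 and 0 of 12 libraries correlated best with their own number, so the numbers were not taken as pairs. Log2 ratio differences with the length trend removed, chosen after seeing the data, were 0.43 (LPS) and -0.035 (both agents against control) for Dnajb1 to Dnaja1, 0.48 for Hspa1a plus Hspa1b to Hspa8 in the latter, and -1.75 and -1.67 for Hspd1 to Hspe1. Ratios without 1 library have no test that can pass and kept their direction, except Hspd1 to Hspe1 in ferulic acid plus LPS against LPS (-0.12 to 0.18).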

Other observations

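Among further chaperone genes, 6 small heat shock protein genes were in the table and 3 of them entered the test. Hspb7 rose with LPS by 1.79 (log2, SE 0.32) and, named after its value was seen, Hspb6 by 1.56 (SE 0.19). Hspb8, a small heat shock protein of selective autophagy, had 16 reads over the control libraries and 182 over the LPS libraries. It passed the low-count filter only through LPS-treated libraries, so no count over this list is read as a result. Heat shock factor and regulator genes other than Hsf1 were 4 in the table, and no count of calls over them is read as a result. Hsbp1, which encodes a binding protein of heat shock factor 1, rose from 73.7 ± 8.76 to 220 ± 24.4 CPM (SD, n = 4, log2 fold change 1.58, SE 0.17), and Hsf2bp, which entered the test through the control libraries alone, had 209 control and 6 LPS reads. Of 18 other textbook targets of heat shock factor 1, most are also in the lists above. Among the 18, 8 rose, Serpinh1 included, and 3 fell (median 0.35), where 35.6% of all genes rose and 38.3% fell. The counts were 4 and 10 with library size scaling (17.5% and 59% of all genes). With the length trend removed they were 12 and 1 (5309 and 4550 of 14065 genes). Ubb, a polyubiquitin gene, rose by 2.25 (SE 0.15). Serpinh1, the collagen chaperone HSP47, had 12 control and 57 LPS reads and passed the filter only through LPS-treated libraries, so its difference is given as a description.

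Likeness of pattern was measured as the root mean square difference of centred log2 CPM over the 12 libraries, among 7983 genes outside the members. It is a description and carries no test. Nearest to Hsp90aa1 was Hsp90b1, the HSP90 of the endoplasmic reticulum (0.0819), then Pex13, Tardbp, the HSP110-related Hspa4l (0.125) and Uba3. Nearest to Hsph1 were Insr (0.101), Tmem87b, Mark3, Cmtm6 and Sdha (0.138). Nearest to Hspa1a plus Hspa1b were Eaf1 (0.169), Pgpep1, Kctd12, Pafah1b3 and Atxn1 (0.212). Among members the closest pairs were Dnaja1 with Hsph1 (0.203), Hspa8 with Hspd1 (0.222) and Hspa1b with Hsf1 (0.260).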
